A study of Mus musculus with 8 samples.

Results

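Aquaporins are membrane channels through which cells pass water and, in some members, glycerol or other small solutes. The 7 genes described here are Aqp1, Aqp3, Aqp4, Aqp7, Aqp8, Aqp9 and Aqp11, measured in mouse liver by 10 of the 55681 different probes of the array. Every probe whose gene name in the scanner files was one of these 7 was taken. The family was chosen by the lower Aqp8 signal of the shRaly arrays, in the same comparison that is described here, so the differences between the groups below are a description, and nothing is supported with them.

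Liver RNA came from 12-week-old bl6 mice on chow, collected on day 6 after transduction with an adenovirus. The 4 shRaly arrays are from mice given pblockITshRaly, which carries a short hairpin RNA against Raly, and the 4 control arrays are from mice given pblockITcontrol. Every mouse therefore received a virus, at 2e+09 with no unit stated, and no untreated liver was analysed here. Raly encodes a nuclear protein that binds RNA, related to the hnRNP proteins, and the comparison asks which liver transcripts differ when it is knocked down. Whether each array is another mouse is not stated in the labels, so errors measure the spread between these samples. The sex of the mice and the promoter of the hairpin are not given in the labels.

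Aquaporins sit in membranes as tetramers in which each subunit holds its own pore. The classical members pass mainly water, the aquaglyceroporins also pass glycerol, and a more distant branch lies in intracellular membranes. In liver, hepatocytes carry Aqp8 in the bile canalicular membrane and in intracellular membranes, where work in rat hepatocytes ties it to water secretion into bile, and Aqp9 on the sinusoidal side, where it takes up glycerol for glucose synthesis. Aqp1 is found on endothelium, bile duct cells and red blood cells.

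The probes for the members that hepatocytes and vessels are known for are shown first, since all values below are the brightness of such 60-base sequences. They are as the array files list them, 5′ to 3′. The dimmer of the 2 Aqp8 probes lies at chr7:130606210-130606269 on the plus strand (build mm9, NCBI37), near the start of the transcript at base 290, and the brighter one at chr7:130611453-130611512, at base 1421. The Aqp9 probe lies at chr9:70978252-70978311 on the minus strand, the dimmer Aqp11 probe at chr7:104877482-104877541 on the minus strand and the Aqp1 probe at chr6:55298480-55298539 on the plus strand. Of the brighter Aqp8 probe, bases 29 to 58 are given, and of the Aqp1 probe bases 31 to 60. The capitals mark AATAAA, the letters of the usual polyadenylation signal, searched on the listed strand only.
Aqp8, dimmer probe: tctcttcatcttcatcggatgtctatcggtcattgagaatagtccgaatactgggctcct
Aqp8, brighter probe, part: atctgactttgtAATAAAtggcttagcatt
Aqp1, part: tcttatggtaagaaAATAAAggacaatgac
Aqp9: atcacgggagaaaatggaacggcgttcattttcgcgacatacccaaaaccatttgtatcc
Aqp11, dimmer probe: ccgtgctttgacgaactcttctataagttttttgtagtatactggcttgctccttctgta
These letters occurred in 2 of the 10 aquaporin probes, those of Aqp1 and the brighter one of Aqp8, and in 10.1% of all 55681 probes. A match describes the letters of a probe and not where a transcript ends. The exon and UTR annotation of the probes on mm9 was not analysed here.

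Values are log2 of the scanner's processed signal relative to each array's 75th percentile, so 0 is the 75th percentile of that array. They can be compared between arrays for 1 probe, but not between probes. Between 45.9% and 51.1% of the spots were well above background on an array, with shRaly 2 lowest, and no spot was saturated. None of the 80 aquaporin spots carried an outlier flag (0 of 80). Raly itself, the check of the labels, read 2.48, 3.13, 2.65 and 2.76 on shRaly arrays 1 to 4 and 3.44, 3.19, 3.51 and 3.60 on control arrays 1 to 4. The groups did not overlap, though shRaly 2 lay just under control 2. The shRaly mean was 62.5% of the control mean (log2 difference -0.68, SE 0.15, n = 4 and 4; limma adjusted p = 0.0751, not past the threshold of 0.05). With normexp background correction the adjusted p was 0.0111, and without shRaly 2 it was 0.0298. Under every other setting, and with any other array left out, it was 0.0643 to 0.193 and not past the threshold. All shRaly arrays lay in slide row 2 and all control arrays in slide row 1, and an effect of the row cannot be told apart from that of the hairpin.

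All 7 members passed the filter for testing, which asks that 4 or more of the 8 arrays show a probe well above background. Across the 14894 genes tested, 1.22% were past the limma threshold and 0.913% were past it and lower in shRaly livers. Of the 7 aquaporins, 1 was past it, Aqp8, which is the gene that selected the family, so nothing is read from this count. Groups without overlap were found for 10.4% of all genes, and for 6.45% with shRaly lower, against the same 1 aquaporin. Of the members 4 had a difference below 0 and 3 above 0. The median over the members was -0.15, beside -0.02 over all genes tested. The 95% interval of the difference spanned 0 for 5 of the 7, the exceptions being Aqp8 and Aqp4. For Aqp4 the limma adjusted p was 0.298, not past the threshold. An interval that leaves out 0 is the same as an unadjusted p under 0.05, which 2398 of the 14894 genes had. Nothing is read from this count either.

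**Figure D1:**
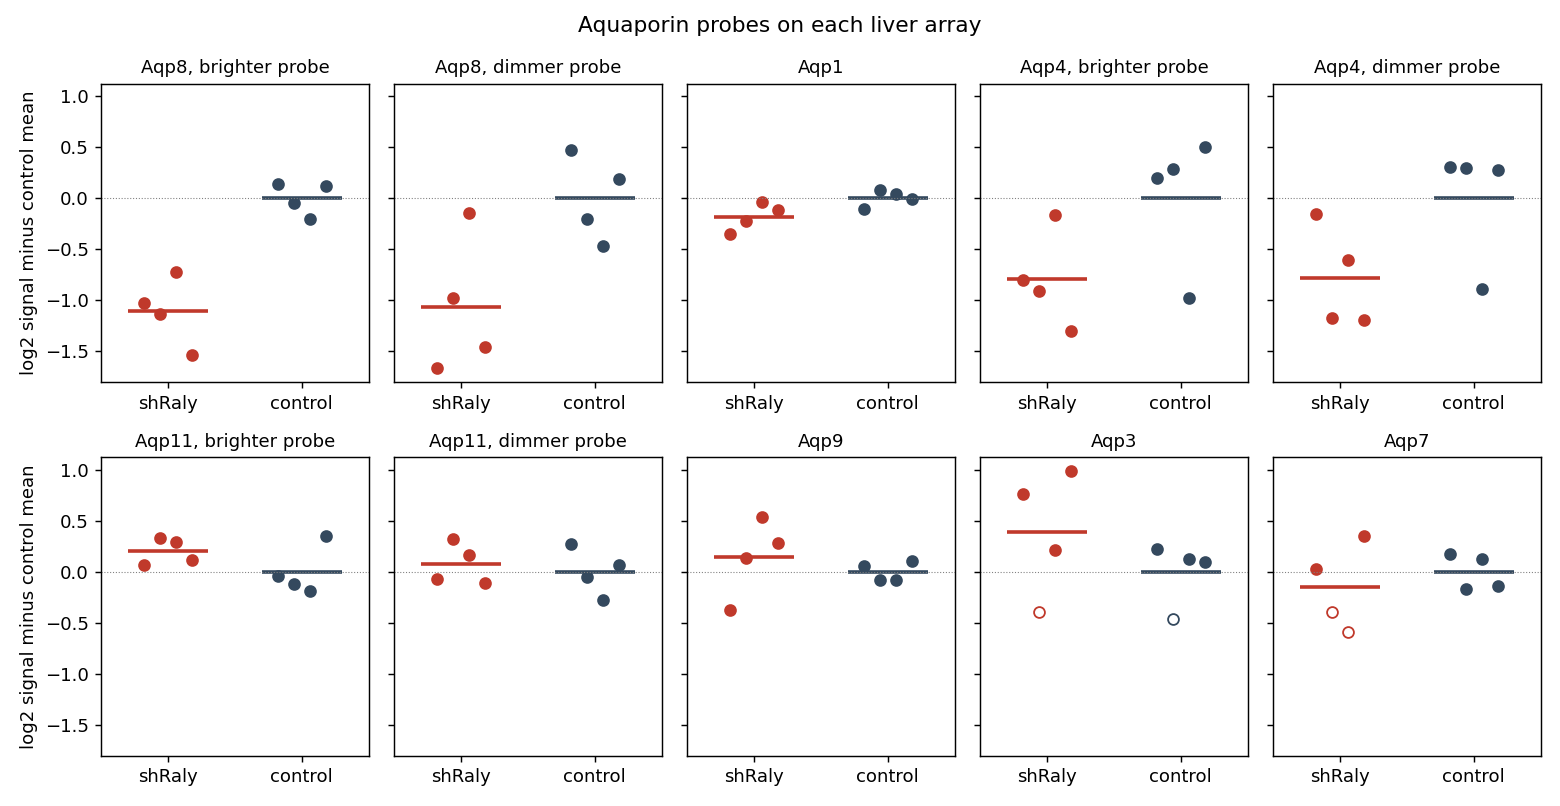
The 10 aquaporin probes on the 8 liver arrays, each panel 1 probe, with shRaly arrays on the left and control arrays on the right. The vertical axis is the log2 signal minus the control mean of that probe, horizontal bars are group means (n = 4 each), and open circles are spots not well above background. The groups are apart for the brighter Aqp8 probe and overlap in the other 9 panels, and control 3 is the low control point in both Aqp4 panels.

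Aqp8, the hepatocyte water channel, was lower on every shRaly array than on any control array at its brighter probe. That probe read 5.65, 5.54, 5.97 and 5.14 on shRaly arrays 1 to 4 and 6.82, 6.63, 6.48 and 6.80 on control arrays 1 to 4, with means of 5.58 ± 0.34 in shRaly livers and 6.68 ± 0.16 in control livers (SD, n = 4 each). The highest shRaly array, replicate 3, lay 0.51 below the lowest control array, which was also replicate 3. As shares of the control mean, the shRaly arrays stood at 48.8%, 45.3%, 60.8% and 34.3%, and the control arrays at 110%, 96.4%, 86.9% and 108%. The difference was -1.11 on the log2 scale (SE 0.17, 95% interval -1.5 to -0.72), which puts the shRaly mean at 46.4% of the control mean (interval 35.4% to 60.6%). Before scaling, the processed signal was 11700, 10900, 18300 and 9640 on the shRaly arrays and 32500, 25000, 24800 and 29400 on the control arrays, and the spot was well above background on all 8.

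The dimmer Aqp8 probe, whose start lies 5243 bases upstream in the genome, gave a mean difference of the same size with a wider spread. It read 0.01, 0.71, 1.54 and 0.23 on shRaly arrays 1 to 4 and 2.16, 1.49, 1.22 and 1.88 on control arrays 1 to 4. Here shRaly 3 lay inside the control range, above controls 2 and 3, so the groups overlapped. The means were 0.62 ± 0.68 in shRaly livers and 1.69 ± 0.42 in control livers (SD, n = 4 each), a difference of -1.07 (SE 0.33, interval -1.82 to -0.31), or 47.8% of control. On both probes shRaly 3 was the highest shRaly array and control 3 the lowest control array. The lowest shRaly array was replicate 4 on the brighter probe and replicate 1 on the dimmer one.

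The distance between the 2 Aqp8 probes was not constant across arrays. The brighter minus the dimmer probe was 5.64, 4.84, 4.43 and 4.91 on shRaly arrays 1 to 4 and 4.66, 5.14, 5.26 and 4.92 on control arrays 1 to 4. Its range was 1.21 among the shRaly arrays and 0.6 among the control arrays, with shRaly 1 at the top and shRaly 3 at the bottom of all 8. The probes share their arrays and are not separate samples. Among the shRaly arrays Raly was lowest on shRaly 1, at 51.8% of control, and highest on shRaly 2, at 80.9%. The brighter Aqp8 probe was lowest on shRaly 4 and stood at 45.3% on shRaly 2, while the dimmer one was lowest on shRaly 1, at 31.3%, and stood at 50.6% on shRaly 2.

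In whole liver, fewer cells of a type and less RNA per cell cannot be told apart. Of the 10 hepatocyte markers, 0 were past the threshold in either direction, with a median difference of -0.12. The 2 with the smallest p were Fgb, a fibrinogen chain (-0.29, limma adjusted p = 0.213), and Alb, albumin (-0.37, adjusted p = 0.226). The differences of the 10 ran from -0.47 for Apoa1 to 0.15 for Cps1. Groups did not overlap for 1 of the 10, Asgr1 with shRaly lower, against 10.4% of all genes. The level of the 10 was summed in multiples of each array's 75th percentile. The sum was 4957 to 6176 on shRaly arrays and 5711 to 6382 on control arrays. The ranges overlap through shRaly 2 alone, while shRaly 1, 3 and 4, at 4957, 5003 and 5349, lay below every control. The part of these values in the Aqp8 difference was not tested. Aqp8 is also made by pancreatic acinar cells, and 3 of the 8 acinar markers, Cpa1, Pnlip and Prss2, did not pass the filter on dim probes, while Amy2b is a name that no probe carried. The 4 acinar markers tested had a median of 0.05 with 0 past the threshold. Among them Ctrb1, a chymotrypsinogen, had -0.41 (adjusted p = 0.193) and Cel, a lipase, 0.31 (adjusted p = 0.531). Their summed level was 0.877 to 1.32 on shRaly arrays and 1.33 to 1.58 on control arrays, without overlap, most of it the signal of the Ctrb1 probe. The array medians of the 4 overlapped, at -0.8 to 0.4 on shRaly arrays and -0.08 to 0.1 on control arrays, and the part of acinar cells in the Aqp8 difference was not tested.

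Aqp1, the water channel of endothelium, bile duct cells and red blood cells, differed little between the groups. It read 4.42, 4.55, 4.73 and 4.66 on shRaly arrays 1 to 4 and 4.66, 4.85, 4.82 and 4.77 on control arrays 1 to 4. The shRaly 3 array lay inside the control range and shRaly 4 level with its lowest value, while shRaly 1 and 2 lay below it. Means were 4.59 ± 0.13 in shRaly livers and 4.77 ± 0.08 in control livers (SD, n = 4 each), with a difference of -0.18 (SE 0.1) and an interval of -0.4 to 0.03, so that the shRaly mean was 88% of the control mean.

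The markers of the cells that carry Aqp1 were looked at beside it. Of the 10 endothelial markers 0 were past the threshold, with a median difference of -0.24. The nearest were Stab2, a scavenger receptor of sinusoidal endothelium (-0.31, limma adjusted p = 0.157), and Flt1, a receptor for vascular endothelial growth factor (-0.38, adjusted p = 0.211, but -0.11 and 0.72 with the mean of its probes). The summed endothelial level was 60.01 to 67.53 on shRaly arrays and 71.11 to 78.57 on control arrays, and these ranges do not overlap. Most of the sum was the signal of the Clec4g and Stab2 probes. The array medians of the 10 did not overlap either, at -0.23 to -0.14 on shRaly arrays and -0.06 to 0.06 on control arrays. Of the 8 cholangiocyte markers 7 were tested and 0 passed, with a median of -0.14 and sums of 3.48 to 4.51 on shRaly arrays and 2.8 to 7.78 on control arrays. Sox9, a transcription factor of bile duct cells, had -0.21 (adjusted p = 0.585), and Cftr, the chloride channel of these cells, was not past the filter. The 4 red blood cell markers tested of 6 had a median of -0.03 and 0 calls, with sums of 130.3 to 215.5 on shRaly arrays and 137.9 to 181.7 on control arrays. Alas2, the heme synthesis enzyme of red cell precursors, had -0.07 (adjusted p = 0.791) and Slc4a1, the red cell anion exchanger, 0.09 (adjusted p = 0.895), while Epb42 did not pass the filter. The part of any of these cell types in the Aqp1 values was not tested.

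Aqp4, the main water channel of astrocytes, was measured by a pair of probes on chromosome 18 whose starts lie 3413 bases apart. The brighter one, at chr18:15547951-15548010 on the minus strand, read -0.54, -0.64, 0.09 and -1.03 on shRaly arrays 1 to 4 and 0.46, 0.55, -0.72 and 0.76 on control arrays 1 to 4. Control 3 lay among the shRaly values, below shRaly 1, 2 and 3, and the other 3 controls lay above every shRaly array. Means were -0.53 ± 0.46 in shRaly livers and 0.26 ± 0.67 in control livers (SD, n = 4 each), a difference of -0.79 (SE 0.34, interval -1.57 to -0.02), or 57.6% of control.

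The dimmer Aqp4 probe, at chr18:15551364-15551423, had -0.62, -1.64, -1.07 and -1.66 on shRaly arrays 1 to 4 and -0.15, -0.16, -1.34 and -0.18 on control arrays 1 to 4. Its difference was -0.79 too (SE 0.33, interval -1.53 to -0.05). Control 3 stood at 50.6% of the control mean on the brighter probe and at 54.1% on the dimmer one. Leaving out 1 array at a time, the difference of the brighter probe ran from -1.12 (SE 0.24) without control 3 to -0.63 (SE 0.36) without control 4 or without shRaly 4, with -1 (SE 0.34) without shRaly 3. Over the 4 control arrays the distance between the probes ran from 0.61 to 0.93, and over the 4 shRaly arrays from 0.08 to 1.16.

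Aqp11, the member of the distant branch that resides in the endoplasmic reticulum, did not separate the groups. Its brighter probe, at chr7:104874889-104874948 on the minus strand, read 3.51, 3.77, 3.73 and 3.56 on shRaly arrays 1 to 4 and 3.40, 3.31, 3.25 and 3.79 on control arrays 1 to 4. Control 4 was the highest of all 8 arrays and the other 3 controls were the lowest. Means were 3.64 ± 0.13 in shRaly livers and 3.44 ± 0.24 in control livers (SD, n = 4 each), with a difference of 0.2 (SE 0.13, interval -0.1 to 0.5). The dimmer probe, whose start lies 2593 bases away, had 2.61, 3, 2.85 and 2.57 on the shRaly arrays and 2.95, 2.63, 2.40 and 2.75 on the control arrays, a difference of 0.08 (SE 0.15, interval -0.26 to 0.41). On that probe shRaly 2 was highest and control 3 lowest.

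Among the aquaglyceroporins, Aqp9 is the glycerol channel of hepatocytes. It read -0.20, 0.31, 0.71 and 0.44 on shRaly arrays 1 to 4 and 0.23, 0.08, 0.09 and 0.27 on control arrays 1 to 4. The shRaly arrays held both the lowest and the highest value, with the controls between them. Means were 0.32 ± 0.38 in shRaly livers and 0.17 ± 0.10 in control livers (SD, n = 4 each), with a difference of 0.15 (SE 0.18, interval -0.26 to 0.55) and the shRaly mean at 111% of control. It was 0.32 without shRaly 1, 0.1 without shRaly 4 and 0.02 without shRaly 3. Neutrophils also carry Aqp9, and 5 of 6 neutrophil markers were tested: 0 passed, the median was 0.4, and the sums, most of them the signal of the Csf3r probe, were 113 to 183 on shRaly arrays and 125 to 171 on control arrays. The array medians were 0.18 to 0.57 on shRaly arrays and -0.63 to 0.48 on control arrays, and overlapped. Retnlg, a secreted resistin-like protein, had 0.74 (adjusted p = 0.326, but 0.18 with normexp and 0.47 without control 2) and S100a9, a calcium-binding protein of granulocytes, 0.4 (adjusted p = 0.426), while Mmp8 was not past the filter. The part of neutrophils in the Aqp9 values was not tested.

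Aqp3, which passes water and glycerol in kidney and skin epithelium, and Aqp7, the glycerol channel of fat cells, were close to background. The Aqp3 probe, at chr4:41039962-41040021 on the minus strand, read -3.09, -4.24, -3.64 and -2.86 on shRaly arrays 1 to 4 and -3.63, -4.31, -3.72 and -3.75 on control arrays 1 to 4. The spots of shRaly 2 and control 2 were not well above background, and these were the lowest of their groups. The difference was 0.39 (SE 0.29, interval -0.27 to 1.05), with shRaly 1 and shRaly 4 above all controls. It was 0.65 (SE 0.23) without shRaly 2, 0.24 (SE 0.3) without control 2 and 0.19 (SE 0.28) without shRaly 4. With normexp background correction the difference was 0.38 (SE 0.11).

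The Aqp7 probe, at chr4:40980431-40980490 on the minus strand, read -3.79, -4.21, -4.41 and -3.47 on shRaly arrays 1 to 4 and -3.64, -3.99, -3.69 and -3.95 on control arrays 1 to 4. The shRaly 2 and shRaly 3 spots were not well above background and were the lowest of all 8. The difference was -0.15 (SE 0.2, interval -0.61 to 0.3), and it was 0.2 (SE 0.12) with normexp background correction, so no direction can be given. Of the 7 adipocyte markers 4 were tested with a median of 0.07 and 0 past the threshold, and Adipoq, Lep and Plin1 were not past the filter. Cfd, the complement factor adipsin, had -0.69 (adjusted p = 0.593; -0.24 without shRaly 4, -0.28 without control 1 and -1.05 without shRaly 1) and Fabp4, a fatty acid binding protein, 0.17 (adjusted p = 0.617). The adipocyte sums were 11.54 to 22.87 on shRaly arrays and 12.63 to 28.12 on control arrays, and the part of fat cells in the Aqp7 values was not tested.

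**Figure D2:**
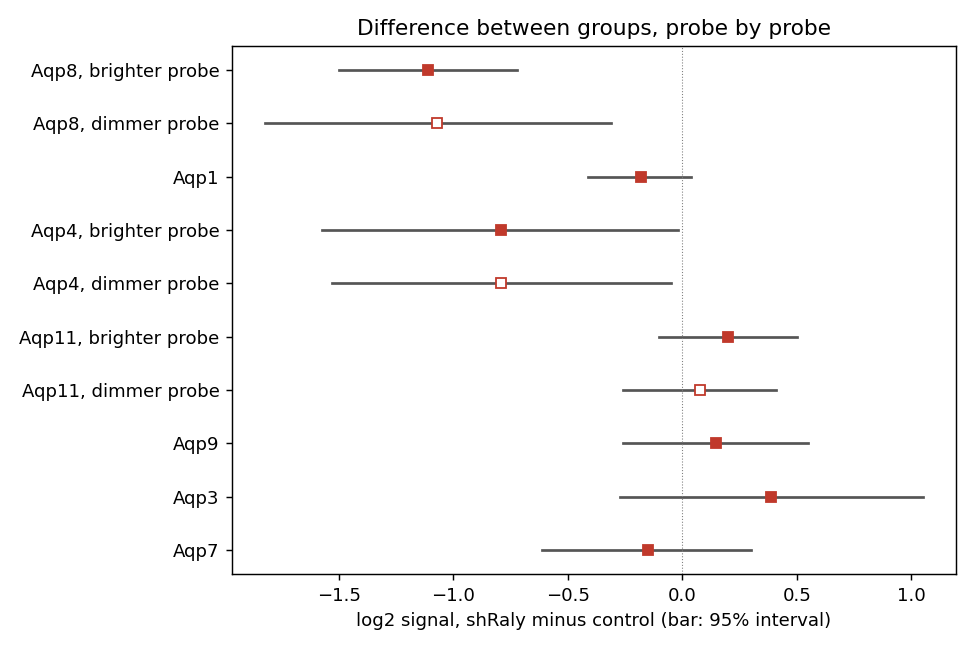
Difference of each aquaporin probe, shRaly minus control, on the log2 scale (horizontal axis), with the 95% interval of the limma fit over probes as a bar (n = 4 and 4 arrays). Filled squares are the probe that represents the gene and open squares the dimmer probe of the same gene. Both Aqp8 probes lie near -1.1, both Aqp4 probes at -0.79 with intervals that end close to 0, and the bars of the other 5 genes cross 0.

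The array also carries 5 aquaporin genes outside these 7, by 7 probes. Mip, the aquaporin of the lens fibre, was at a level near background, and it met the filter through the control arrays. It read -4.02, -4.71, -4.6 and -4.32 on shRaly arrays 1 to 4 and -3.30, -3.56, -2.88 and -3.41 on control arrays 1 to 4, without overlap. The spot was well above background on 1 shRaly array and on 4 control arrays, and the processed signals were 8.93 to 14.3 in the shRaly group and 21.4 to 37.7 in the control group. The fit gave -1.12 (SE 0.19, limma adjusted p = 0.0347), past the threshold, over shRaly values of which 3 were not well above background. With normexp background correction the difference was -0.05 (adjusted p = 0.903), with no filter on dim probes the adjusted p was 0.0993, and leaving out any 1 control array ended the call (adjusted p 0.0686 to 0.0899), as did leaving out shRaly 3 or shRaly 4 (0.0898 and 0.0946). Aqp2, the vasopressin-regulated channel of the kidney collecting duct, had -0.19 (SE 0.15, adjusted p = 0.568). The probes of Aqp5, Aqp6 and Aqp12, known from gland, kidney and pancreas, were not tested. They were not well above background on any array, with the exception of 1 Aqp5 probe on shRaly 4, at -3.2.

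The genes whose array-by-array pattern lay nearest to that of Aqp8 were sought among 13333 tested genes with a symbol, by the root mean square difference over the 8 arrays of log2 values relative to the control mean. Of the 5 taken, Crygs, a lens crystallin, was nearest at 0.14. The others were Slc17a4, a transporter of organic anions, at 0.196, and Elovl5, a fatty acid elongase, at 0.219. They were followed by Gngt1, a G protein gamma subunit, at 0.223, and Fdps, farnesyl diphosphate synthase of cholesterol synthesis, at 0.226. The measure favours genes with a difference of the size of that of Aqp8: Slc17a4 had -0.96, Elovl5 -1.15, Gngt1 -0.94 and Fdps -0.95. With normexp these were -0.87, -1.16, -0.51 and -1.02. Crygs was well above background on 4 control arrays and 0 shRaly arrays, so it passed the filter through the control group. Its likeness to Aqp8 has no shRaly value well above background behind it. Its fitted difference of -1.07 rests on shRaly values that were not well above background. With normexp the difference was -0.17, so no size can be given.

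**Figure D3:**
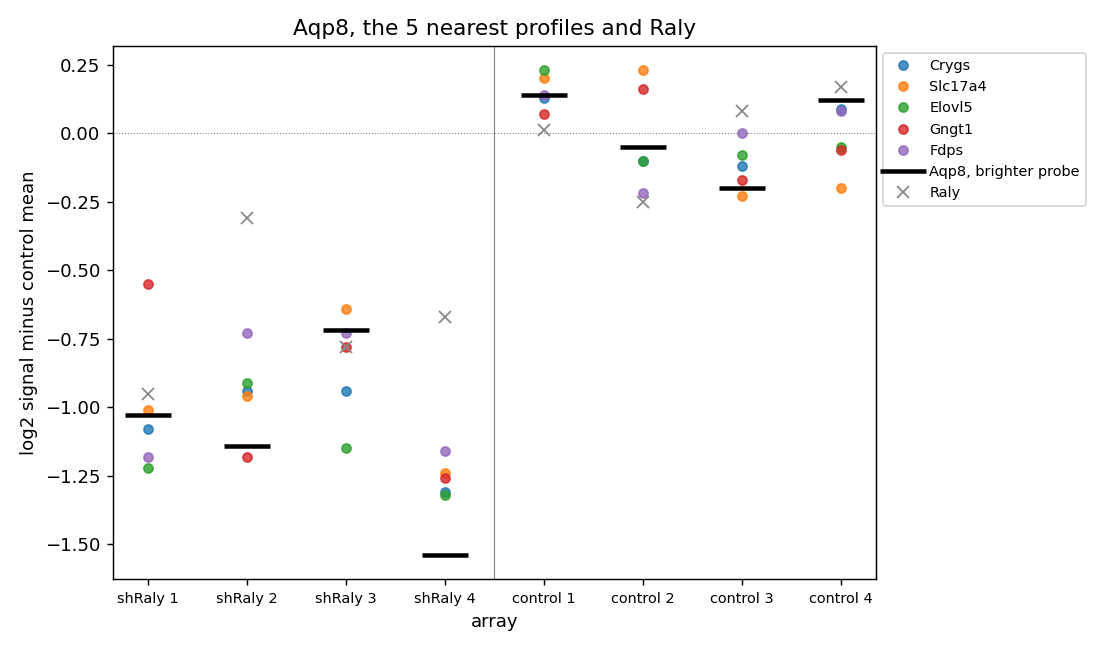
Log2 signal minus the control mean (vertical axis) on the 8 arrays (horizontal axis, shRaly left of the line) for the brighter Aqp8 probe (black bars), the 5 genes nearest to it (coloured points) and Raly (crosses). On shRaly 4 Aqp8 lies below all 5, and on shRaly 2 Raly stands well above them.

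The glycerol channels act with enzymes that make and use glycerol, and none of the 8 tested of 9 genes in that group passed the threshold in either direction (0 of 8; median 0.06). The closest were Gpd1l (0.30, limma adjusted p = 0.276) and Gpd2, the mitochondrial glycerol-3-phosphate dehydrogenase (-0.33, adjusted p = 0.311). Plin1, which coats lipid droplets, was not past the filter.

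Aqp8 works beside the transporters of the bile canaliculus, and 0 of these 9 genes passed, with a median of -0.08. Slc4a2, a chloride and bicarbonate exchanger, came closest. It read 4.38, 4.6, 4.45 and 4.52 on shRaly arrays 1 to 4 and 5.16, 4.83, 4.89 and 5.04 on control arrays 1 to 4, without overlap (-0.49, SE 0.1, limma adjusted p = 0.0601). With normexp its adjusted p was 0.0387, past the threshold. Under every other setting, and with any 1 array left out, it was 0.0537 to 0.172 and not past it. Abcg5, which exports sterols into bile together with Abcg8, had 0.28 (adjusted p = 0.202). Groups did not overlap for 3 of the 9, against 10.4% of all genes: Slc4a2 and Abcb11, the bile salt export pump, with shRaly lower, and Abcg5 with shRaly higher.

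Of 13 hormone and nuclear receptor genes known as regulators of aquaporins, or of the hepatocyte programme they belong to, 1 fell, 0 rose and 12 did not pass, with a median of -0.07, while 0.913% of all genes tested fell. Groups did not overlap for 2 of the 13, against 10.4% of all genes. These were Foxo1, with shRaly higher (0.5, SE 0.12, limma adjusted p = 0.0951), and Ppara, the gene that fell. Ppara is the fatty acid receptor that governs fasting metabolism. It read 5.99, 5.97, 5.59 and 5.74 on shRaly arrays 1 to 4 and 6.35, 6.55, 6.43 and 6.31 on control arrays 1 to 4, without overlap. Its difference was -0.59 (SE 0.11), at an adjusted p of 0.04995 that lay just under the threshold. The call was lost with quantile normalization (adjusted p = 0.0948), with the percentile over detected spots (0.0791), without a filter on dim probes (0.139) and with the mean of the probes (0.0961). It was also lost without each control array (0.0875 to 0.15), as well as without shRaly 1, 3 or 4 (0.0574 to 0.153).

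Genes of cell volume and osmolyte control had 0 calls among 10, with a median of 0.08. Slc12a2, which loads cells with sodium, potassium and chloride, had 0.36 (limma adjusted p = 0.16), and Sgk1, a kinase induced by cell shrinkage, 0.46 (adjusted p = 0.258). Aqp8 also passes hydrogen peroxide, and the 11 genes that make or remove peroxide had 0 calls and a median of -0.07. Prdx4, a peroxiredoxin of the secretory pathway, had -0.16 (adjusted p = 0.528) and Gpx4, which reduces lipid peroxides, -0.11 (adjusted p = 0.56). Across all genes 2398 had an unadjusted p under 0.05.

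Of the remaining cell types, Kupffer cell and macrophage markers had a median of -0.02 (7 tested, 0 past the threshold), with Vsig4, a complement receptor, at -0.19 (limma adjusted p = 0.567) and Cd5l, a secreted scavenger receptor protein, at 0.13 (adjusted p = 0.751). Stellate cell markers had a median of -0.15 (7 tested, 0 past it), with Pdgfrb, a growth factor receptor, at -0.46 (adjusted p = 0.267) and Lrat, which stores vitamin A as esters, at -0.56 (adjusted p = 0.334).

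**Figure D4:**
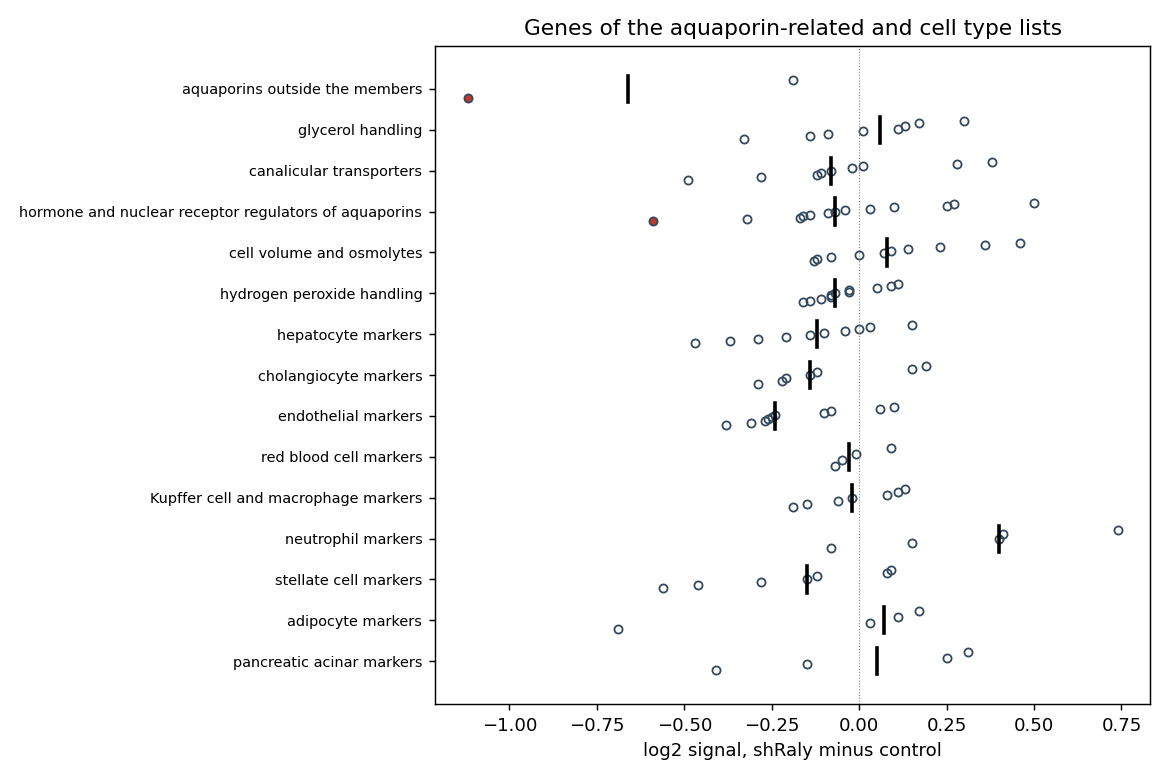
Difference of each tested gene, shRaly minus control, on the log2 scale (horizontal axis), for the lists of aquaporin-related genes and cell type markers (rows); black bars are list medians and filled red points are genes past the limma threshold. The 2 filled points are Mip at -1.12 and Ppara at -0.59, and the list medians other than that of the 2 tested outside aquaporins lie between -0.24 and 0.4.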

How the data were processed

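Liver RNA was labelled with Cy3 and read on 8 one-colour Agilent arrays. The intensity values are those of Agilent Feature Extraction 11.5.1.1, per the file headers: the processed signal in the deposited files is background-subtracted and not normalized between arrays. The deposited table of the series equalled it for 62976 of 62976 spots. Its scale is thus linear and uncentred.

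For the present comparison log2 of this signal was used, less the 75th percentile of the non-control spots of the same array. Outlier-flagged spots (137 to 163 per array) were left out and spots of a probe averaged. Probes were named by RefSeq accession or symbol through a gene table. A gene was tested if 4 or more arrays showed a probe well above background, with values on at least 3 arrays of each group. The probe of highest mean represented the gene. Groups were compared with limma 3.58.1 in R 4.3.3, with Benjamini-Hochberg adjustment over 14894 genes (threshold 0.05). The fit was tested on simulated data.

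The members and the 15 gene lists were chosen with earlier results of these data known. The lists gave counts and medians only. Named were all members, Raly, the outside aquaporins, the 5 patterns nearest to Aqp8 (leaving out clone and predicted-gene names), and from each list up to 4 genes past the threshold or, with none, the 2 of smallest p. Some list genes stayed in the counts and are not reported here by name. Other genes were chosen after their values were seen. They were named because they lay below the filter, were on no probe, led a sum or had groups without overlap. Some were named because they lay at an end of the range of their list or went against most of it. The alternatives were normexp correction, quantile or median scaling, the percentile over detected spots, other filters, the mean of probes, the deposited table, a replicate block and leaving out each array. Arrays give no counts, and their number limits the precision.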

Additional observations from a re-analysis of the deposited data

Results flagged for a closer look

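Of 36 groups of 4 arrays looked at, 1 per aquaporin probe, outside aquaporin probe or Raly and group, 2 held an array far from the others by Dixon's ratio, and chance flags about 1 in 20. The first was control 3 on the dimmer Aqp4 probe, at -1.34 on the log2 scale, while the other 3 controls read -0.15, -0.16 and -0.18. The second was shRaly 2 on an Aqp5 probe, at -6.04, while the other 3 shRaly arrays lay between -6.77 and -6.67; none of the 8 arrays showed this probe well above background.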

How the results depend on the processing

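The number of genes past the threshold was 182, 42 with no filter on dim probes (24029 genes tested) and 46 with the replicate block, and it ran from 17 (without control 2) to 282 (without shRaly 2) when 1 array was left out. The other 7 settings gave 133 to 252. The number of aquaporins past it was 1, but 0 with no filter, with the mean of the probes of a gene and with the replicate block, and 0 to 1 with 1 array left out (0 without each control array and without shRaly 4). The Aqp8 difference itself stayed between -1.16 and -1.07 over 9 settings and between -1.24 and -0.96 over the 8 left-out arrays. The filter on all 8 arrays left out Aqp3 and Aqp7. Signs turned for Aqp7 with normexp (0.2), for Cd5l without control 1 (-0.04; -0.04 to 0.19 over the left-out arrays), for Slc4a1 without shRaly 3 (-0.14; -0.14 to 0.26) and for the dimmer Aqp11 probe with 1 array left out (-0.02 to 0.17). Small list medians also changed sign with 1 array left out: glycerol handling (-0.09 to 0.11), adipocyte (-0.24 to 0.24), pancreatic acinar (-0.25 to 0.24), cholangiocyte (-0.24 to 0.05), red blood cell (-0.16 to 0.08) and Kupffer cell markers (-0.06 to 0.03). The cholangiocyte median was 0.06 with normexp, the red blood cell median 0.04 with no filter, and the acinar median -0.41 with the filter on all 8 arrays. Same-numbered arrays of the groups had correlations of 0.08, -0.02, -0.07 and 0.14 of their deviations. Pairings with other numbers gave -0.06 to 0.01, -0.12 to 0.19, -0.04 to 0.08 and -0.28 to 0.23. With 4 arrays a group these cannot decide whether the numbers, which are also the slide columns, pair the samples. With the block, Mip and Ppara had adjusted p of 0.09 and 0.12. The median of all genes stayed between -0.05 and 0.05 under every setting. Signal over background limits Aqp3, Aqp7 and Mip. The causes were not tested.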
